A study of Mus musculus with 8 samples.

Results

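The cluster of miR-183, miR-96 and miR-182 consists of 3 microRNA (miRNA) hairpins that lie side by side on mouse chromosome 6, mmu-mir-183, mmu-mir-96 and mmu-mir-182. Its reads were those whose annotation named a single member and no other RNA. The 3 members were chosen by name from 956 miRNA annotations that had a read in the 8 libraries, of which 770 named a single hairpin.

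The study asked whether activating the AgRP neurons, which drive feeding, alters the small RNA of sperm. Adult male mice of genotype Agrp Cre/+ (activated, n = 4) or Agrp +/+ (control, n = 4) all received a Cre-dependent AAV9 vector, hSYN-DIO-hM3D(Gq)-mCherry, on both sides of the arcuate nucleus. The vector makes the activating receptor (DREADD) only in neurons with Cre, so the controls carried the virus without Cre. Small RNA was sequenced from sperm of the cauda epididymis. The sperm was collected 4 h after an injection of clozapine-N-oxide (CNO), the DREADD ligand, which both genotypes received without access to food. The labels give each library a group and a replicate number and do not say whether mice were pooled, so p-values measure the spread between these libraries.

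A miRNA is cut from the stem of a hairpin, and bases 2 to 8 of the mature strand, the seed, pair with target transcripts. The hairpins of the cluster are transcribed together. The 3 miRNAs are best known from sensory cells of the eye, ear and nose and are also found in many epithelia. Mutations in the seed of miR-96 cause hearing loss in humans and mice, and miR-182 and miR-96 both repress the transcription factor Foxo1.

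In GRCm38.p6 the 3 hairpins lie on the minus strand. Mir183 comes first in the direction of transcription (chr6:30169668-30169737, 70 bases), Mir96 follows after 116 bases (chr6:30169446-30169551, 106 bases) and Mir182 after another 3453 (chr6:30165918-30165992, 75 bases), over 3820 bases in all. The annotation held 0 other genes that overlap the hairpins. The cluster lies between Nrf1 and the lincRNA Rncr4, both on the plus strand, at distances of 12459 and 3155 bases.

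The mature 5p strands are shown because nearly all reads came from them. They are RefSeq's sequences, 5′ to 3′, with the seed in capitals, and all 3 members matched the table by name:
mmu-miR-182-5p: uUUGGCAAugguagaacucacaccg
mmu-miR-96-5p: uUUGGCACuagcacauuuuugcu
mmu-miR-183-5p: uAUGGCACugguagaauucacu

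Positions are counted from 1 at the 5′ end. The seeds of miR-182-5p and miR-96-5p were equal at 6 of 7 positions and differed by A8C. Those of miR-183-5p and miR-96-5p were also equal at 6 of 7 and differed by A2U. miR-182-5p and miR-183-5p were equal at 5 of 7, with U2A and A8C. Among 1679 mature mouse miRNAs, only miR-96-5p of these 3 strands shared its whole seed with another, miR-1271-5p.

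The 8 libraries held 14903635, 17489698, 14757501 and 9409491 reads in activated replicates 1 to 4 and 12421068, 23123740, 9297271 and 14348060 in control replicates 1 to 4. Levels are given on the reads-per-million scale (RPM), relative to all reads of the library. Levels of different miRNAs were compared without scaling for length. Per the study's methods duplicate reads were kept, so these are levels of reads and not of molecules. For miR-1271-5p, which has the seed of miR-96-5p, 0 of the 115750464 reads of all libraries carried the name of its hairpin alone. The reads were not searched for its sequence, so its level is not known. Reads annotated as miRNA made up 37.8%, 28.9%, 23.0% and 37.4% of the activated libraries and 26%, 33.2%, 17.8% and 47.1% of the control libraries.

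The libraries differed in ways that the groups do not explain. Mitochondrial rRNA was below 0.5% of reads in activated replicates 1 and 4 and control replicates 2 and 4 (0.182%, 0.145%, 0.167% and 0.123%). It was 1.89% and 1.69% in activated replicates 2 and 3 and 1.21% and 1.09% in control replicates 1 and 3. Each set thus held 2 libraries of each group, and the labels name no batch.

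Control replicate 4 stood apart from the other 7 libraries. Of 128 miRNA annotations with a mean of at least 100 RPM, 30 (23.4%) were over 2 times as high in that library as in any other, while in each of the other 7 libraries 0 or 1 annotations reached that margin. By the count of annotations that were merely highest it did not stand apart, with 43 (33.6%) against 47 (36.7%) in activated replicate 1. The miRNAs miR-143 and miR-145a, typical of smooth muscle, stood at 17171 and 17715 RPM in control replicate 4 and at 83.7 to 332 and 52.8 to 123 RPM in the other libraries. Group differences in the level of the cluster are therefore given with and without that library. In bulk libraries fewer cells of a type and less RNA per cell cannot be told apart.

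The member with the highest level was miR-182, at 498, 292, 196 and 414 RPM in activated replicates 1 to 4 and 264, 360, 234 and 1464 RPM in control replicates 1 to 4. Control replicate 4 was far above the rest, and the other 3 control values lay inside the activated range. miR-183 was at 271, 224, 180 and 290 RPM in the activated libraries and 154, 219, 168 and 697 RPM in the control libraries. Again control replicate 4 was highest, and control replicates 1 and 3 were below every activated library. miR-96 was at 247, 100, 80.1 and 139 RPM in the activated libraries and 73.2, 150, 124 and 821 RPM in the control libraries. Its second highest value was that of activated replicate 1, and the groups overlapped for each of the 3 members.

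These levels rested on 909 to 21004 reads per member and library. By mean RPM over the 8 libraries, miR-182 ranked 63, miR-183 ranked 81 and miR-96 ranked 91 of the 956 annotations. Without control replicate 4, by the mean over the other 7, they ranked 73, 85 and 108. Their mean shares of miRNA reads were 0.135%, 0.0840% and 0.0611%, and 0.110%, 0.0749% and 0.0450% without that library. miR-182 was above miR-183, and miR-183 above miR-96, in 7 of the 8 libraries; in control replicate 4 miR-96 was above miR-183. Each member had its best rank in control replicate 4 (47 for miR-182, 69 for miR-183 and 63 for miR-96), and in the other 7 libraries the ranks ran from 66 to 78, 77 to 90 and 89 to 117.

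**Figure D1:**
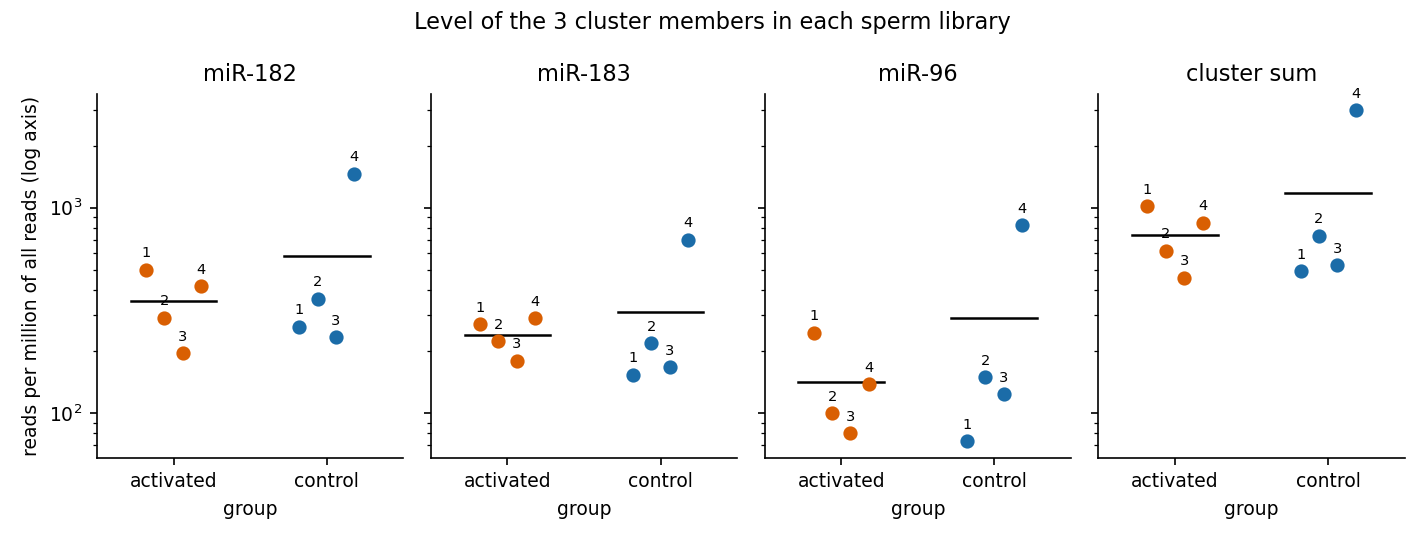
Level of miR-182, miR-183, miR-96 and their sum in RPM (log axis) in each library, with replicate numbers beside the points and group means as lines. Control replicate 4, at 2982 RPM for the sum, lies above the other 7 libraries, which span 455 to 1016 RPM.

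The means for miR-182 were 350 ± 133.2 RPM in activated and 580 ± 591 RPM in control libraries (SD, n = 4 each), a ratio of 0.603 (two-sided exact permutation p = 0.771). With 4 against 4 libraries the smallest p this test can give is 0.0286. Without control replicate 4 the control mean was 286 ± 65.7 RPM (n = 3), the ratio was 1.22 and the exact p was 0.514. The direction of the difference in mean RPM was thus set by 1 library.

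For miR-183 the means were 241 ± 49.6 and 309 ± 260 RPM, a ratio of 0.780 (exact permutation p = 0.971). It became 1.34 without control replicate 4 (exact p = 0.114), where the smallest possible p is 0.0571. For miR-96 the means were 141.4 ± 74.2 and 292 ± 354 RPM, a ratio of 0.484 (exact permutation p = 0.657), and the ratio became 1.22 without control replicate 4 (exact p = 0.743). The sum of the 3 members gave 0.620 with all libraries (exact permutation p = 0.83) and 1.26 without that library (exact p = 0.400). The difference between the groups was smaller than the spread between control libraries for each member with all 8 libraries, and passed no test there. Without control replicate 4 the exact test could not give a p under 0.05, so it decides nothing.

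Within the set of libraries high in mitochondrial rRNA, 2 against 2 and with no test, the ratio of means was 0.980 for miR-182, 1.26 for miR-183 and 0.915 for miR-96. Within the low set it was 0.50, 0.613 and 0.397. Without control replicate 4 it was 1.27, 1.28 and 1.29 there, with control replicate 2 as the only control library. Apart from control replicate 4, miR-182 was at 360 to 498 RPM in the low set and at 196 to 292 RPM in the high set, so the sets did not overlap in RPM. For miR-183 the ranges were 219 to 290 and 154 to 224 RPM, and for miR-96 139 to 247 and 73.2 to 124 RPM. The share of miRNA reads split the same way, at 33.2% to 47.1% in the low and 17.8% to 28.9% in the high set. Relative to miRNA reads the sets overlapped for miR-182, at 1085 to 1316 and 852 to 1313 apart from control replicate 4. Part of the spread in RPM inside each group thus went with the split by mitochondrial rRNA, whose part in the result was not tested.

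Relative to miRNA reads, without control replicate 4, the ratio of activated to control was 0.942 for miR-182, 1.04 for miR-183 and 0.902 for miR-96 (exact permutation p = 0.743, 0.80 and 0.686). With all 8 libraries on that scale the ratios were 0.657, 0.831 and 0.542 (exact permutation p = 0.371, 0.629 and 0.343). Also on the scale of miRNA reads control replicate 4 was highest, at 3108 for miR-182 against 852 to 1316 in the other libraries.

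Control replicate 4 exceeded the next highest library 2.94-fold for miR-182, 2.40-fold for miR-183 and 3.33-fold for miR-96. Against the median of the other 7 libraries, the folds were 5.01, 3.18 and 6.62. Ranked by that fold among the 128 annotations, miR-96 came at 21, miR-182 at 23 and miR-183 at 36. The median fold of the 128 was 1.23. The cluster was thus among the miRNAs that stood high in that library, without being at the top of them.

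The edgeR quasi-likelihood test on all RNA annotations was run on 618 with at least 50 counts in at least 4 libraries, all 3 members among them. A call needed an adjusted p under 0.05 and an absolute log2 fold change over 1, and 0 members were called, against 0 of 618 called higher (0.0%) and 0 called lower (0.0%). Without adjustment, 11 annotations were higher (1.78%) and 39 lower (6.31%) at p under 0.05 in edgeR, 0 members among them. All 3 members had a log2 fold change below 0, as did 54.2% of all annotations. DESeq2, on the 579 annotations for which it gave an adjusted p, called 0 higher (0.0%) and 3 lower (0.518%). Of the members only miR-183 was among the 579, and it was not called. Without control replicate 4, edgeR called 0 of 601 annotations in either direction (0.0%), and without adjustment 20 were higher (3.33%) and 42 lower (6.99%), 0 members among them.

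By edgeR the log2 fold change of activated over control was −0.82 for miR-182 (SE 0.63, adjusted p 0.652), −0.41 for miR-183 (SE 0.52, adjusted p 0.693) and −1.17 for miR-96 (SE 0.76, adjusted p 0.598). Without control replicate 4 the edgeR values were 0.31 (SE 0.27, adjusted p 0.473), 0.47 (SE 0.22, adjusted p 0.438) and 0.29 (SE 0.35, adjusted p 0.595). All 3 changed sign, while 45.3% of all annotations were then below 0. DESeq2 gave an adjusted p of 0.684 for miR-183 and returned none for miR-182 and miR-96. The median log2 fold change of the 304 miRNA annotations tested was 0.15, and 0.41 over the 290 tested without control replicate 4, so that without this library the members lay close to the median miRNA.

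**Figure D2:**
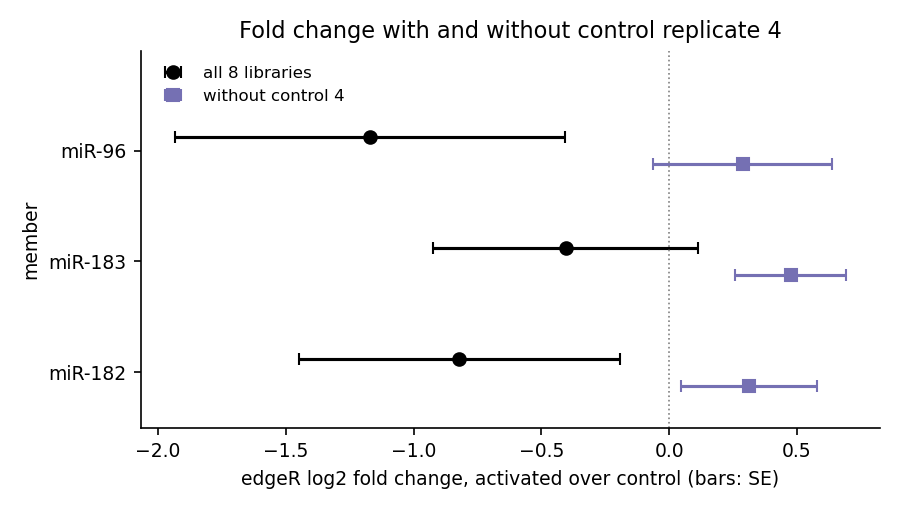
edgeR log2 fold change of activated over control for each member with all 8 libraries (circles) and without control replicate 4 (squares), with SE as bars. The values move from −0.82, −0.41 and −1.17 to 0.31, 0.47 and 0.29 for miR-182, miR-183 and miR-96.

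A ratio of members within a library does not depend on the library total. The log2 ratio of miR-183 to miR-182 was −0.88, −0.38, −0.12 and −0.51 in the activated libraries and −0.78, −0.71, −0.48 and −1.07 in the control libraries. Activated replicate 3 had relatively most miR-183 and control replicate 4 least. The groups differed by 0.29 (exact permutation p = 0.257), and by 0.18 without control replicate 4 (exact p = 0.514). Leaving out each library in turn, this difference ranged from 0.17 to 0.42.

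The log2 ratio of miR-96 to miR-182 was −1.01, −1.54, −1.29 and −1.58 in the activated libraries and −1.85, −1.27, −0.92 and −0.83 in the control libraries. Control replicate 1 was lowest and control replicate 4 highest, so the control libraries spanned the activated ones. The difference was −0.14 (exact permutation p = 0.60) and −0.01 without control replicate 4 (exact p = 0.914). Leaving out each library in turn, it ranged from −0.35 to −0.01.

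The ratio of miR-96 to miR-183 varied most, with log2 values of −0.14, −1.16, −1.17 and −1.07 in the activated libraries and −1.07, −0.55, −0.43 and 0.24 in the control libraries. Activated replicate 1 stood above the other activated libraries, and control replicate 4 was the only library with more miR-96 than miR-183. On the linear scale that ratio was 1.18 in control replicate 4 and 0.445 to 0.909 in the other libraries. The difference of −0.43 between the groups was smaller than the SD within either group (0.50 and 0.54, exact permutation p = 0.314), and it was −0.20 without control replicate 4 (exact p = 0.629). Leaving out each library in turn, it ranged from −0.68 to −0.20. Of the 3 ratios only 2 are free, since any pair fixes the remaining one.

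**Figure D3:**
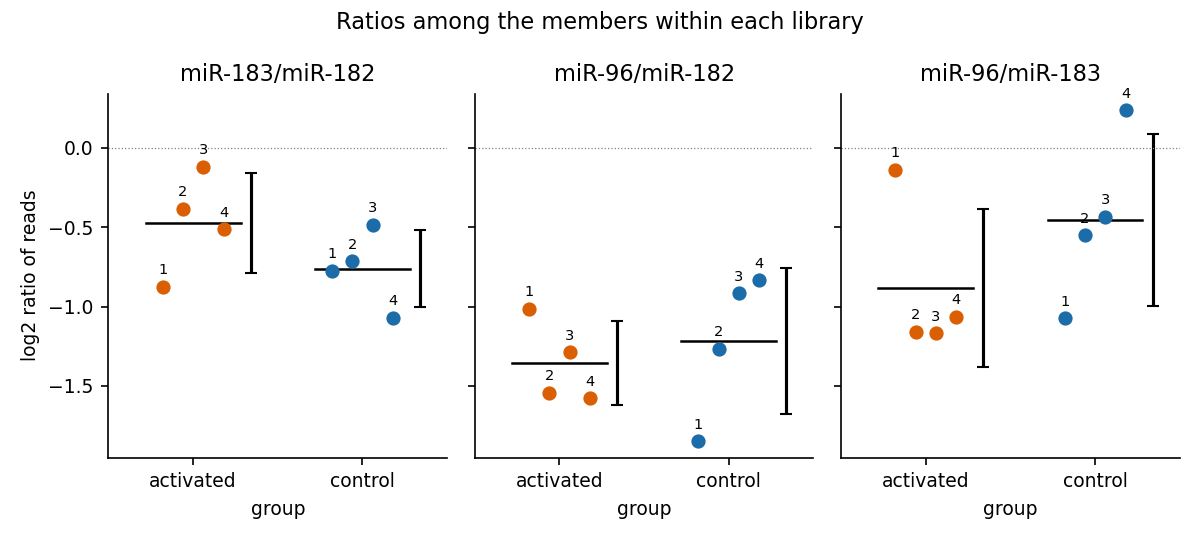
Log2 ratios of reads between members in each library, with replicate numbers, group means (horizontal lines) and SD (vertical bars, n = 4). The groups overlap for each ratio, and the ratio of miR-96 to miR-183 ranges from −1.17 to 0.24.

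Among the reads of all 8 libraries, the 5p arm gave 53844 for miR-182, 31659 for miR-183 and 25187 for miR-96. The 3p arm gave 15, 224 and 30 reads. Another 240 reads of miR-182 and 4 of miR-96 lay in neither arm. In each library at least 98.7% of a member's reads came from the 5p arm. The 3p reads of miR-183 numbered 15, 22, 9 and 1 in the activated and 12, 16, 19 and 130 in the control libraries, and their share of miR-183 reads was highest in control replicates 4 (1.30%) and 3 (1.22%). That share was 0.327% on average in activated and 0.866% in control libraries (exact permutation p = 0.114), and 0.721% in control libraries without replicate 4 (exact p = 0.229).

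The 5′ end, and with it the seed, was placed less precisely for miR-183 than for the other members. Reads of the 5p arm started at the RefSeq 5′ end in 99.4% to 99.8% of cases for miR-182 and 98.2% to 100.0% for miR-96. For miR-183 the share was 75.9%, 76.6%, 76.7% and 76.7% in the activated and 76.1%, 77.8%, 76.7% and 71.6% in the control libraries. Over all libraries 24.7% of miR-183 5p reads started 1 base downstream, which moves the seed by 1 base. Control replicate 4 had the lowest share at the RefSeq start. The mean difference between the groups in that share was 0.964 percentage points (exact permutation p = 0.771) and −0.337 without control replicate 4 (exact p = 0.514).

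The commonest reads are shown to make visible which end varied. They are written as DNA as in the deposited tables, with capitals for bases past the first 21 of each read. The 5 reads of miR-182 with the highest mean RPM differed only at the 3′ end, by 1 to 4 bases:
miR-182, 22 nt: tttggcaatggtagaactcacA
miR-182, 23 nt: tttggcaatggtagaactcacAC
miR-182, 25 nt: tttggcaatggtagaactcacACCG
miR-182, 21 nt: tttggcaatggtagaactcac
miR-182, 24 nt: tttggcaatggtagaactcacACC

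Their mean levels were 164, 103, 72.5, 44.3 and 44.0 RPM in that order, so the 25 nt form, which is RefSeq's mature sequence, came after the forms shorter by 3 and by 2 bases. With control replicate 4 left out they were 102, 91.8, 37.1, 34.2 and 34.6 RPM, and the 24 nt form came before the 21 nt form. The commonest form was at 594 RPM in control replicate 4, 3.45-fold the next library. The 25 nt form was at 320 RPM there, 6.08-fold the next library, and at 22.2 to 52.7 RPM elsewhere.

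The 5 commonest reads of miR-183 included a pair that began 1 base downstream:
miR-183, 22 nt: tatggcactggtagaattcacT
miR-183, 23 nt: tatggcactggtagaattcacTG
miR-183, 24 nt: tatggcactggtagaattcacTGT
miR-183, 23 nt, start moved by 1: atggcactggtagaattcactGT
miR-183, 21 nt, start moved by 1: atggcactggtagaattcact

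Their mean levels were 124, 33.6, 33.4, 25.7 and 22.8 RPM in that order, and the first of them equals RefSeq's mature sequence. The place of the 23 nt read at the RefSeq start rested on control replicate 4. Without that library the means were 104, 19.7, 29.5, 20.8 and 18.8 RPM, and this read came after the 24 nt read and the 23 nt read with the moved start. In control replicate 4 the 23 nt read at the RefSeq start was at 131 RPM, 5.15-fold the next library. Both reads with the moved start were highest in that library too, at 60.1 and 50.7 RPM.

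For miR-96 the mature 23 nt sequence was also the commonest read, and the next 2 were 1 or 2 bases shorter:
miR-96, 23 nt: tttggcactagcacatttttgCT
miR-96, 21 nt: tttggcactagcacatttttg
miR-96, 22 nt: tttggcactagcacatttttgC

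Their mean levels were 101, 63.0 and 48.8 RPM in that order. Leaving out control replicate 4 gave 64.3, 26.8 and 36.7 RPM, so the order of the 21 nt and 22 nt reads was reversed, and the 22 nt read was the higher of the pair in 6 of those 7 libraries. The 21 nt read was at 316 RPM in control replicate 4, 6.16-fold the next library, and at 13.8 to 51.4 RPM elsewhere.

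Read lengths were spread most for miR-182. Its reads of 22 nt made up a median of 31.5% over the 8 libraries and those of 23 nt 28.9%. For miR-183 reads of 22 nt made up 52.4%, and for miR-96 reads of 23 nt 47.4%. Of 13 combinations of member and length tested for their RPM, 0 gave an exact permutation p under 0.05, the lowest was 0.343 and the lowest Benjamini-Hochberg adjusted value was 1.0. With control replicate 4 left out the lowest exact p was 0.114, where the smallest possible is 0.0571, so no p under 0.05 could occur.

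The mix of lengths in control replicate 4 lay outside that of the other 7 libraries for each member. For miR-182 its share of 25 nt reads was 21.9% against 8.62% to 16.9% elsewhere, and its share of 23 nt reads 12.7% against 22.1% to 32.6%. For miR-96 the 21 nt share was 38.6% against 17.2% to 26.5%, and the 22 nt share 16.6% against 24.0% to 33.6%. miR-183 showed a smaller shift, with a 23 nt share of 27.7% against 16.9% to 24.9%. Control replicate 3 was the library next to it for the 25 nt share of miR-182, the 21 nt share of miR-96 and the 23 nt share of miR-183.

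**Figure D4:**
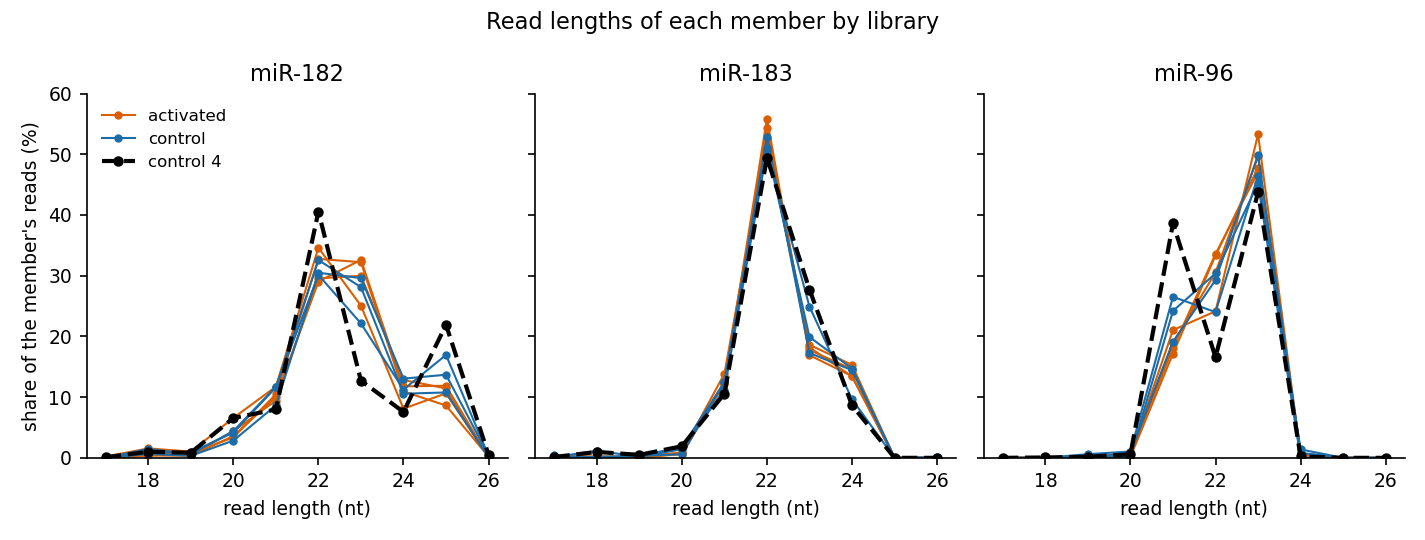
Share of each member's reads (%) at each read length (nt) in each library, with activated and control libraries in colour and control replicate 4 as a dashed black line. In control replicate 4 the share of 21 nt reads of miR-96 was 38.6%, against 17.2% to 26.5% in the other 7 libraries.

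The mean length of miR-96 reads was 22.3 nt in each of the 4 activated libraries and 22.2, 22.3, 22.2 and 22.0 nt in the control libraries. Control replicate 4 was shortest and control replicate 2 lay inside the activated range. The difference was 0.107 nt (exact permutation p = 0.114), and 0.0576 nt without control replicate 4 (exact p = 0.229). The difference was −0.10 nt for miR-182 (exact permutation p = 0.371) and 0.0365 nt for miR-183 (exact permutation p = 0.257). Without control replicate 4 these were −0.099 and 0.0322 nt (exact p = 0.457 and 0.400). Over the omission of each library in turn, they ranged from −0.143 to −0.032 nt for miR-182 and from 0.0193 to 0.0607 nt for miR-183.

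Reads equal to the mature sequence of miR-182 made up 10.7%, 11.9%, 11.5% and 8.63% of its 5p reads in the activated libraries and 13.7%, 10.9%, 17.1% and 21.9% in the control libraries. Control replicates 1, 3 and 4 were above every activated library and control replicate 2 was among them. The difference was −5.24 percentage points (exact permutation p = 0.0857), and −3.23 without control replicate 4 (exact p = 0.171). For miR-96 the shares were 43.7% to 53.4%, with a difference of 3.13 points (exact permutation p = 0.171) and 2.24 without control replicate 4 (exact p = 0.343).

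For miR-183 such reads made up 48.3%, 50.9%, 48.1% and 50.6% in the activated and 48.6%, 47.8%, 44.5% and 38.2% in the control libraries. The difference was 4.68 points (exact permutation p = 0.114), and 2.49 without control replicate 4 (exact p = 0.229). Its reads that ran past the RefSeq 3′ end made up 36.0%, 35.8%, 38.0% and 36.1% in the activated and 36.1%, 38.2%, 40.5% and 48.0% in the control libraries. Only control replicate 1 lay inside the activated range. The difference of −4.24 points gave an exact permutation p of 0.0571, and without control replicate 4 it was −1.80 points (exact p = 0.114). Reads that stopped short of that end made up 5.73%, 4.72%, 5.14% and 4.72% in the activated and 5.74%, 5.54%, 7.47% and 6.22% in the control libraries, with only control replicate 2 inside the activated range. Their difference was −1.16 points (exact permutation p = 0.0571), and −1.17 without control replicate 4 (exact p = 0.114).

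Counting only reads equal to the mature sequence moved the ratios that involve miR-182. The log2 ratio of miR-183 to miR-182 was then 1.31, 1.71, 1.96 and 2.04 in the activated and 1.04, 1.43, 0.89 and −0.29 in the control libraries. Control replicate 4 was the only library with more mature-length miR-182 than miR-183, and control replicate 2 was the only control library inside the activated range. The difference was 0.98 (exact permutation p = 0.0571), and 0.63 without control replicate 4 (exact p = 0.114). For miR-96 over miR-182 it was 0.49 (exact permutation p = 0.200), a change of sign from the ratio over all reads, and 0.42 without control replicate 4 (exact p = 0.400). For miR-96 over miR-183 it was −0.49 (exact permutation p = 0.286), close to the −0.43 over all reads, and −0.21 without control replicate 4 (exact p = 0.571).

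Reads that match a member up to its 3′ end and then go on with bases the hairpin does not encode carry untemplated tails, which enzymes add to miRNAs after cutting. Such reads carried other annotations or none and are in none of the levels above. They were counted where at least 20 hairpin bases from the RefSeq 5′ end were followed by 1 to 3 other bases, although sequencing errors in the last bases are counted with them. An added base equal to the next hairpin base was not counted as a tail. An added A is thus hidden after the 21 nt read of miR-182. An added U is hidden after the 22 nt read of miR-96 and the 23 nt read of miR-183. Which tail base was the commoner may therefore reflect the hairpin sequence, which was not tested. For miR-182 there were 6580 such reads, of which 5323 ended in U only and 1124 in A only. For miR-183 there were 1381, with 993 in A only and 288 in U only, and for miR-96 1860, with 1340 in A only and 476 in U only. Tails of only U outnumbered those of only A for miR-182 in 8 of 8 libraries. Tails of only A were the more numerous for miR-96 in 8 of 8 libraries and for miR-183 in 7, control replicate 1 being the exception with 18 A and 22 U. Control replicate 4 alone gave 491 of the A tails of miR-183 and 897 of those of miR-96. Without it there were 502 A and 219 U tails for miR-183 and 443 A and 218 U tails for miR-96.

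Per 100 reads of the 5p arm, tailed reads of miR-182 numbered 13.2, 17.5, 17.3 and 18.7 in the activated and 15.01, 15.2, 11.9 and 7.12 in the control libraries. Control replicate 4 was lowest, and activated replicate 1 lay inside the control range. The difference was 4.38 per 100 reads (exact permutation p = 0.0857), and 2.65 without control replicate 4 (exact p = 0.171). Tailed reads of miR-96 numbered 5.24, 6.56, 3.81 and 3.84 in the activated and 5.06, 4.12, 8.07 and 9.996 in the control libraries. Those of miR-183 numbered 3.48 to 3.63 in the activated and 2.58 to 5.89 in the control libraries. The differences were −1.95 for miR-96 (exact permutation p = 0.229) and −0.830 for miR-183 (exact permutation p = 0.314), and −0.892 and −0.324 without control replicate 4 (exact p = 0.457 and 0.629). Among the 8 libraries, control replicate 4 was thus lowest for tails of miR-182 and highest for those of miR-183 and miR-96.

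In the edgeR test on single reads (fragments), 12077 with at least 50 counts in at least 4 libraries were tested, 16 of them from the cluster (6 of miR-182, 7 of miR-183 and 3 of miR-96, out of 51, 39 and 26 distinct reads). Of the 16, 0 were called, while edgeR called 61 of all fragments higher (0.505%) and 0 lower (0.0%). Without adjustment, 0 of the 16 were at p under 0.05, against 377 (3.12%) on the higher and 497 (4.12%) on the lower side for all fragments. DESeq2 called 0 of the 16, of which 4 had no adjusted p, and 195 higher (1.65%) and 45 lower (0.381%) of all. The 61 calls became 0 without control replicate 4, where 320 (2.76%) and 357 (3.08%) of 11587 fragments lay at an unadjusted p under 0.05 on the higher and lower side. They became 0 as well when activated replicates 1, 3 and 4 and control replicates 2 and 3 were each left out alone, 30 without activated replicate 2 and 58 without control replicate 1.

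All 16 cluster fragments had a log2 fold change below 0, with a median of −0.70, while 49.0% of all fragments were below 0. Without control replicate 4 all 16 were above 0, with a median of 0.49, while 51.9% of all fragments were below 0. The lowest edgeR adjusted p among them was 0.743, for the 25 nt form of miR-182, with a log2 fold change of −1.85, and without control replicate 4 the lowest was 0.959. The fragments of a miRNA are not independent of each other. The CPM of the groups did not overlap for 0 of the 16, against 3.88% of all fragments, and for 0 of the 3 members, against 3.07% of all annotations.

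Likeness to other miRNAs was measured as the SD over libraries of the log2 ratio between a member and each of 127 other miRNA annotations with a mean of at least 100 RPM. A small SD means that the ratio stayed nearly constant, because both levels moved together or because both varied little. For miR-182 the 5 nearest were miR-31 (SD 0.19), miR-26a (0.23), miR-148a (0.23), miR-183 (0.30) and miR-27b (0.32), with a median of 0.80 over all, and miR-96 came at rank 7 (0.36). For miR-183 they were miR-31 (0.20), miR-29a (0.21), let-7d (0.21), miR-374b (0.28) and miR-26a (0.29), with a median of 0.67, and miR-182 came at rank 7 and miR-96 at rank 23 (0.53). For miR-96 they were let-7f (0.23), miR-182 (0.36), miR-199a/b (0.37), miR-148a (0.41) and miR-26b (0.46), with a median of 1.003, and miR-183 came at rank 13.

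As an example of levels, miR-31 was at 277, 185, 135 and 228 RPM in the activated and 141.9, 199.9, 115 and 675 RPM in the control libraries, high in control replicate 4 like the cluster. Without that library the order of likeness changed. Of the 127 annotations, miR-183 then came at rank 27 for miR-182 (SD 0.26) and miR-96 at rank 52 (SD 0.33), with a median of 0.37. Seen from miR-183, miR-96 came at rank 71 (SD 0.42, median 0.39), and from miR-96, miR-182 came at rank 7 and miR-183 at rank 21 (median 0.55). The nearest were then miR-26a for miR-182 (SD 0.14), miR-29a for miR-183 (0.14) and miR-126a for miR-96 (0.19). For miR-183, miR-182 came at rank 20 (SD 0.26). In the 7 libraries each member thus had other miRNAs nearer to it than its partners, and the partners were nearer than the median miRNA except miR-96 seen from miR-183.

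Lists of miRNAs typical of cell types were summed beside the cluster. The testis and sperm list had 13 of 13 members tested, of which miR-465 was the most abundant, with sums of 54668, 41287, 33735 and 54384 RPM in the activated and 35912, 47034, 26556 and 41315 RPM in the control libraries. For 0 of the 13 was control replicate 4 the highest library. Their edgeR log2 fold changes were above 0 for all 13, with a median of 0.30 (0.48 without control replicate 4), and edgeR and DESeq2 each called 0 of the 13, with 0 at an unadjusted p under 0.05 in edgeR. Over all miRNA annotations tested the median was 0.15 (0.41 without control replicate 4), so the list lay close to it without that library. Of all RNA annotations 54.2% were below 0. The values for miR-465 in these counts are those of its most abundant annotation.

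The epithelium list (the miR-200 family, miR-203 and miR-205) had 7 of 7 members tested. Its sums were 3476, 1166, 1085 and 1196 RPM in the activated and 1364, 1825, 2733 and 19420 RPM in the control libraries, so control replicate 4 was 5.59-fold the next library. It was the highest library for 7 of the 7, and activated replicate 1 came next in the sum. The most abundant, miR-200c, was at 7487 RPM there and at 441 to 1169 RPM elsewhere. By edgeR 0 of the 7 were called and 3 had an unadjusted p under 0.05, all on the lower side, where 6.31% of the 618 annotations lay, and DESeq2 called 0 of the 2 for which it gave an adjusted p. The median log2 fold change was −2.15, with 7 below 0, and −0.09 without control replicate 4, with 5 below 0.

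The muscle list had sums of 393, 200, 138 and 292 RPM in the activated and 200, 362, 244 and 35290 RPM in the control libraries, where control replicate 4 was 89.8-fold the next. It was the highest library for 4 of the 5, the exception being miR-206, which was at 0 there and in control replicate 2; a count of 0 allows up to 0.209 and 0.130 RPM in these libraries. The most abundant was miR-143. Of the 5, 2 were tested, 0 were called by edgeR and 2 had an unadjusted p under 0.05, both on that side, and DESeq2 gave an adjusted p for 0 of them. Both had a log2 fold change below 0, with a median of −5.53, and 1 of the 2 without control replicate 4, with a median of −0.20.

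The leukocyte list had sums of 979, 432, 706 and 623 RPM in the activated and 410, 539, 394 and 879 RPM in the control libraries, with miR-142a the most abundant. Of its 5 members 4 were tested, 3 with a log2 fold change above 0 and 1 below, from −1.34 for miR-146a to 1.31 for miR-150, and a median of 0.28 (0.64 without control replicate 4), and edgeR and DESeq2 each called 0, with 0 at an unadjusted p under 0.05 in edgeR.

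The erythrocyte list had sums of 298, 83.5, 113 and 84.1 RPM in the activated and 235, 532, 976 and 659 RPM in the control libraries, including reads shared by miR-486a and miR-486b. Its most abundant member was miR-451a. Reads of miR-486a alone were at 0 in activated replicate 2, which allows up to 0.172 RPM, and reads of miR-486b alone in activated replicates 2, 3 and 4 and control replicate 3. Of its 4 members 2 were tested, with a median log2 fold change of −1.42 (−2.01 for the 1 tested without control replicate 4), and edgeR called 0, with 1, lower, at an unadjusted p under 0.05 (against the same 6.31%). DESeq2 called 1, miR-451a, as lower (log2 fold change −1.65, adjusted p 0.0202), against 0.518% of the 579 annotations called lower by DESeq2. The annotation shared by miR-486a and miR-486b was lower by DESeq2 as well (log2 fold change −2.11, adjusted p 0.00236) and not called by edgeR (log2 fold change −2.39, adjusted p 0.562). Both for muscle and for epithelium the library with the highest sum was also the library with the highest level of the cluster, and their part in the result was not tested. Every miRNA of the 5 lists had a read in at least 1 library.

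**Figure D5:**
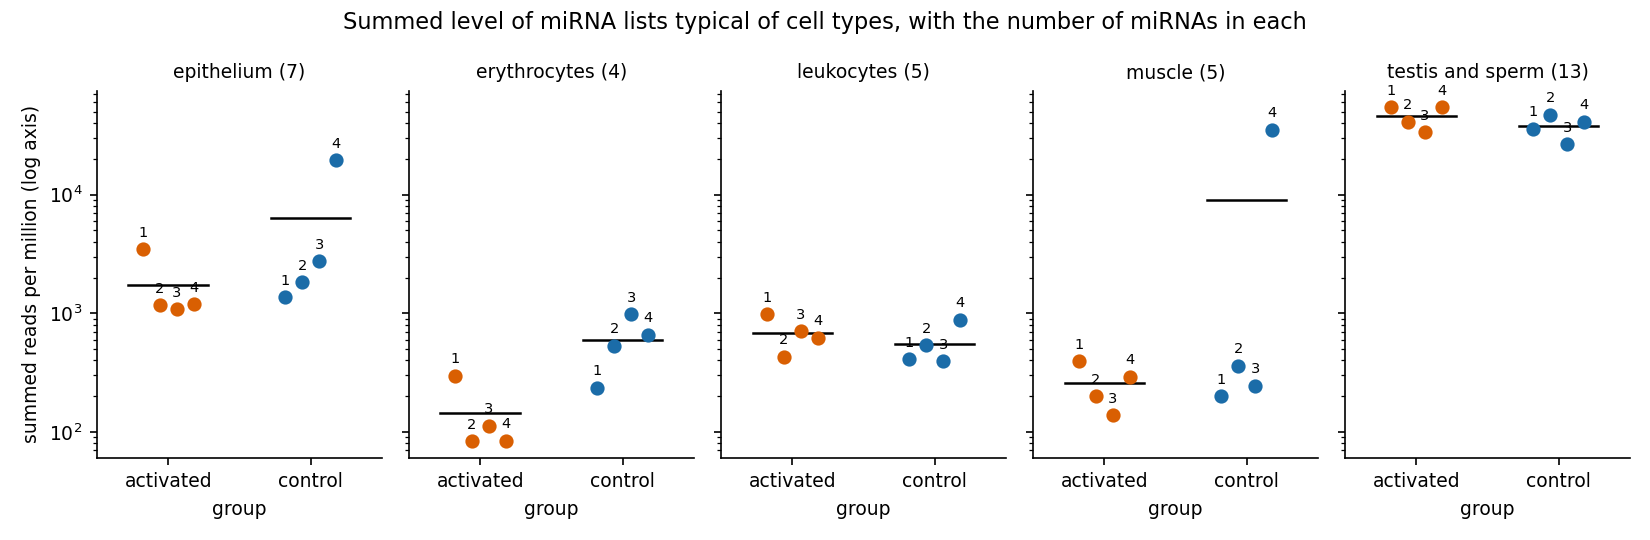
Summed RPM (log axis) of miRNA lists typical of cell types in each library, with replicate numbers, group means as lines and the number of miRNAs in each list. Control replicate 4 is at 19420 RPM for epithelium and 35290 RPM for muscle, against at most 3476 and 393 RPM in the other libraries.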

How the data were processed

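Small RNA of 8 sperm libraries was analysed from the deposited tables. Per the study's methods the authors used SPORTS1.1, and the submitters' processing notes name Bowtie and mm10. The fragment tables hold raw counts as deposited, 1 line per distinct read of 15 to 45 nt. The summary tables hold expected counts as deposited by the authors, in which a read that matches several RNAs is divided among them. They were used to check totals, and 24 of 24 member values and 8 of 8 library totals were equal.

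Reads that name a member alone were summed per miRNA and length and divided by the file total (RPM). Of 111203 member reads, 0 named other RNAs. Group differences were tested by two-sided exact permutation over 70 assignments. Annotations and fragments with at least 50 counts in at least 4 libraries were tested with edgeR 4.0.16 (TMM, quasi-likelihood, Benjamini-Hochberg) in R 4.3.3, and with DESeq2 1.42.0, whose fold changes were shrunken with apeglm 1.24.0. The SE beside an edgeR fold change is its size divided by the square root of the quasi-likelihood F. Reads without annotation (9.53% to 23.7% per library) were kept out of the test on annotations and its library sizes, and stayed in the test on fragments. Other values were computed in Python 3.11.15 (scipy 1.17.1, pandas 2.3.3, numpy 2.4.6) and plotted with matplotlib 3.10.9. The procedures were tested on simulated data.

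Arms and ends come from exact matches to RefSeq hairpins (GRCm38.p6), neighbouring genes from GENCODE M21. The reads named are those with the highest mean RPM (5, 5 and 3 for miR-182, miR-183 and miR-96), any called fragment, the 5 miRNAs nearest to each member by the SD of the log2 ratio, and the most abundant of each cell type list; miR-145a, miR-206, miR-486a and miR-486b were named after their values were seen. Members and lists were chosen with earlier results of these data known. Alternatives were other denominators and scalings, a filter of 10 counts or none, DESeq2, leaving out each library, a block by replicate number, the split by mitochondrial rRNA, reads of 18 to 26 nt, and a shorter match of 18 bases before a tail. Likeness and cell type lists without control replicate 4 were added after seeing the data. Intervals and floors cover counting error only.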

Additional observations from a re-analysis of the deposited data

Results flagged for a closer look

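Control replicate 4 lay far from the other control libraries for each member and for their sum. Its level was 1464 RPM for miR-182 (nearest control library 360 RPM), 697 RPM for miR-183 (nearest 219), 821 RPM for miR-96 (nearest 150) and 2982 RPM for the sum (nearest 729). The gap to the nearest library was 0.898, 0.880, 0.898 and 0.904 of the range of the group, above Dixon's limit of 0.83 for 4 samples. The sum is made of the 3 members, so these are not independent. Among activated libraries, replicate 1 lay apart in the log2 ratio of miR-96 to miR-183, at −0.14 against −1.07 for the nearest, a gap of 0.902 of the range. Chance marks about 1 in 20 groups of 4 in this way if values are normally distributed. Levels, ratios, mean lengths and shares of arms and ends were all checked in both groups, so some marks can come from chance. Causes were not tested.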

How the results depend on the processing

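The direction of the cluster's differences in RPM turned on control replicate 4. Relative to miRNA reads it did not for miR-182, miR-96 and the sum, whose ratios were 0.942, 0.902 and 0.966 without that library. Leaving out each library in turn, the ratio of activated to control ranged from 0.503 to 1.22 for miR-182, 0.668 to 1.34 for miR-183, 0.364 to 1.22 for miR-96 and 0.519 to 1.26 for the sum, above 1 only without control replicate 4. Among libraries high in mitochondrial rRNA it was 1.26 for miR-183 and 1.05 for the sum. The log2 ratio of miR-96 to miR-182 was 0.49 with mature-length reads. The edgeR log2 fold change ranged from −1.08 to 0.31 (miR-182), −0.65 to 0.47 (miR-183) and −1.50 to 0.29 (miR-96). For single reads it ranged from −1.55 to 0.45 (22 nt), −0.35 to 0.52 (23 nt), −2.21 to 0.033 (25 nt), −1.06 to 0.39 (21 nt) and −0.90 to 0.24 (24 nt) for miR-182. For miR-183 it ranged from −0.47 to 0.58 (22 nt), −1.82 to 0.047 (23 nt), −0.29 to 0.61 (24 nt; 0.081 with the mitochondrial rRNA sets as a term), −0.66 to 0.50 (23 nt, start moved) and −0.56 to 0.60 (21 nt, start moved). For miR-96 it ranged from −1.72 to 0.48 (23 nt), −2.78 to 0.17 (21 nt) and −1.03 to 0.45 (22 nt). Differences in 5p share ranged from −0.0516 to 0.186 points for miR-182 and −0.0334 to 0.0823 for miR-96. Differences in the share at the RefSeq 5′ end ranged from −0.0880 to 0.0362 for miR-182, −0.337 to 1.71 for miR-183 and −0.206 to 0.402 for miR-96. The 61 fragments called higher by edgeR became 195 with DESeq2, 202 with a filter of 10 counts, 100 with the sets as a term and 0 to 58 leaving out a library. The 0 called lower became 45 with DESeq2 and 7 with the sets as a term, and were 0 to 0 leaving out a library. DESeq2 called 3 annotations lower where edgeR called 0. Replicate numbers did not pair the samples (correlations of same-numbered libraries −0.47, −0.04, 0.50 and −0.12). With the number as a block, differences were taken on log2 RPM, so the ratios are of geometric means and not of arithmetic means as above. These were 0.776, 0.947, 0.705 and 0.809 for miR-182, miR-183, miR-96 and the sum (exact sign-flip p = 0.625, 1.0, 0.625 and 0.625, smallest possible 0.125). Their distance from the ratios above comes from the kind of mean and not from the block. With that block edgeR called 0 annotations and 0 fragments, and 3 reads changed sign, to 0.0021 (miR-182, 23 nt), 0.0097 (miR-183, 22 nt) and 0.15 (miR-183, 24 nt). Differences in mean read length and in all tails together kept their sign when each library was left out, with 5p reads only (lengths), with 18 hairpin bases (tails) and inside the mitochondrial rRNA sets, except the length of miR-183 in the low set (−0.0030 nt). No replicate block was run for them. The A-only tails of miR-183 went from −0.41 to 0.32 per 100 reads without control replicate 4. The causes of these changes were not tested, and 4 libraries a group limit what can be seen.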
